A study of Mus musculus with 24 samples.

Results

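RNA from the whole kidneys of mice that had lived under 137Cs γ-rays at 13 µGy/min was compared with RNA from the kidneys of unirradiated mice. The irradiated group had been exposed for 22 h a day over 485 days, to a total of 8000 mGy, the highest dose rate and dose of the series, and its organs were taken as soon as exposure ended. The control group received no irradiation. The 6 arrays of this comparison, 3 of irradiated and 3 of control kidneys, were chosen by their sample labels from 12 kidney arrays and 24 arrays in all. The other kidney arrays came from mice kept at 0.032 and 0.65 µGy/min (21 and 420 mGy), and the remaining 12 arrays from testis. All arrays were Illumina Mouse-6 bead arrays, which read labelled RNA as a brightness per probe. Strain, sex and age are not given in the sources used here, and since whole kidney was measured, fewer cells of a type and less RNA per cell cannot be told apart. The design names 3 biological replicates per group, and the number of arrays limits the precision of every value.

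The kidney reabsorbs most of what it filters, and the proximal tubule pays for this work almost entirely with mitochondrial respiration. The respiratory chain consists of complexes assembled from subunits of 2 genomes: nuclear genes, whose messages are translated on cytosolic ribosomes, and the small circular genome inside the mitochondrion. Ionizing radiation is best known for breaking DNA, which activates the transcription factor p53 and its targets, such as the cell cycle inhibitor Cdkn1a.

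Among the named genes that passed the test, most of those that rose in irradiated kidneys code for respiratory chain subunits or the translation machinery, and most of those that fell code for chromatin regulators, transcription factors of the zinc-finger class, RNA processing factors or actin-bound adhesion proteins. Of 10903 probes tested, 55 (0.504%) passed a limma test at Benjamini-Hochberg adjusted p under 0.05, of which 32 (0.293%) were higher and 23 (0.211%) lower in irradiated kidneys. Among these, 22 carried a gene symbol, 12 higher and 10 lower, and 33 did not. The differences of the 55 probes ran from 0.31 to 1.17 on the log2 scale in either direction. Over all probes tested, the median difference was −0.0029, 48.8% of probes lay above 0, and percentiles 5 and 95 of the differences were −0.25 and +0.26. All 55 probes that passed separated the irradiated from the control arrays without overlap on the normalized scale, as did 13.8% of all probes tested. With every array scaled to its median instead of quantile normalized, 12 probes passed, of which 25% were higher, against 58.2% of the 55.

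The count of 55 moved with single arrays. Without control replicate 2 it was 197, without control replicate 3 it was 3 and without control replicate 4 it was 11. Without high replicate 1 it was 37, without high replicate 2 it was 85 and without high replicate 3 it was 2. Of the 55 probes, 52, 2 and 9 still passed without each control array in that order, and 28, 34 and 2 without each irradiated array. When the fit held the 6 arrays alone, with no other group to estimate the spread, 0 passed at an adjusted p under 0.05 and 914 did at an unadjusted p under 0.05.

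**Figure D1:**
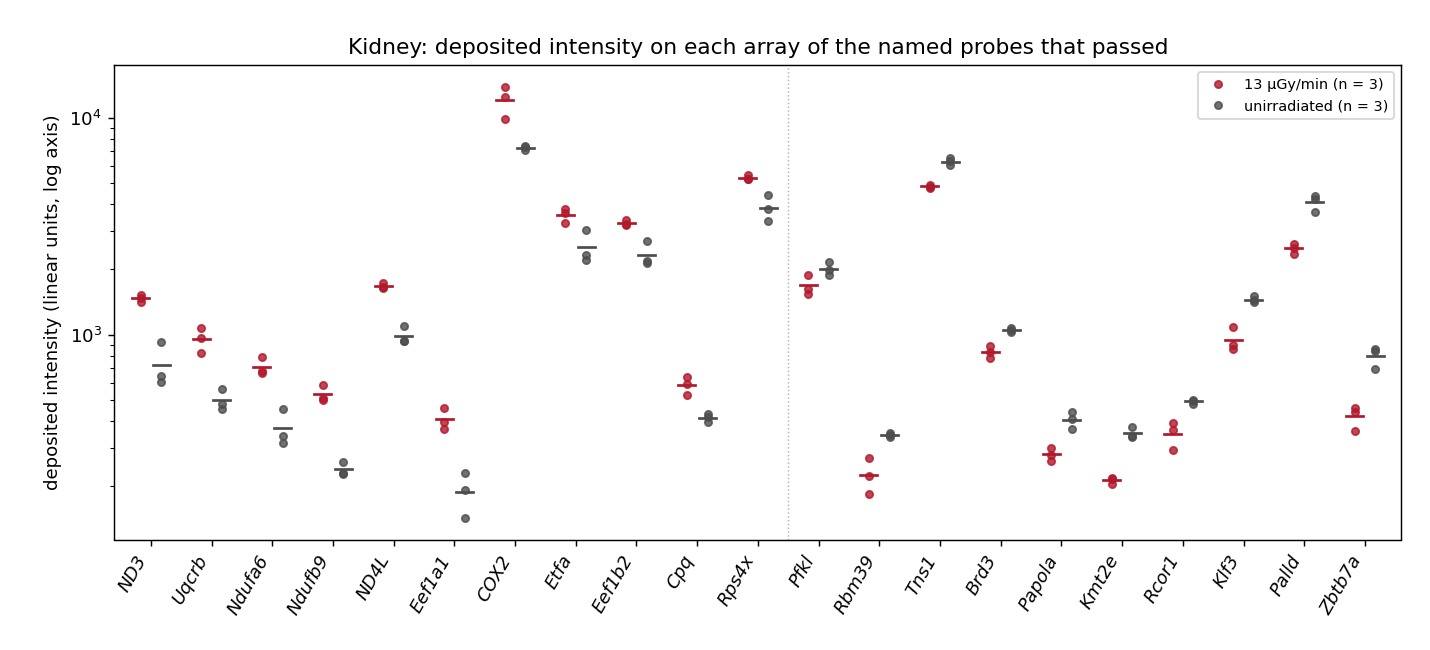
Deposited intensity (linear units, log axis) of 21 named probes that passed, on each of 3 irradiated (red, left) and 3 control arrays (grey, right), with short lines at the group means. Genes run from the largest rise to the largest fall, and the groups overlap in deposited intensity for 1 of them, Pfkl, whose highest irradiated array (1887) lies above its lowest control array (1885).

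Subunits of the respiratory chain made from nuclear genes included 3 that rose by nearly 1 on the log2 scale or more. Ndufb9, an accessory subunit of complex I, was read at 586, 499 and 512 units in irradiated kidneys, against 260.4, 229 and 229 units in control kidneys. Both groups were tight, and the difference was +0.94 ± 0.09 on the log2 scale (SE, n = 3 each, adjusted p = 0.00406), the smallest adjusted p among the named probes. Ndufa6, another accessory subunit of complex I, was at 669.5, 681 and 788 units in irradiated kidneys, against 456, 318 and 343 units in control kidneys (+0.98 ± 0.16, adjusted p = 0.0352). Uqcrb, a subunit of the ubiquinol-binding part of complex III, was at 1071, 824 and 968 units in irradiated kidneys, against 561, 455 and 477 units in control kidneys (+1.06 ± 0.15, adjusted p = 0.0213). In each of these genes the lowest irradiated array lay above the highest control array. Etfa, the electron transfer flavoprotein subunit that hands electrons from fatty acid oxidation to the chain, rose by 0.52 ± 0.09 on one probe (adjusted p = 0.0362), at 3616, 3774 and 3275 units in irradiated kidneys, against 3042, 2334 and 2206 units in control kidneys. A second, brighter Etfa probe differed by +0.0060 ± 0.13, so the pair of probes for that gene did not give the same difference.

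Most other nuclear subunits differed by far less. The gene lists here and below were chosen with earlier results of these data known. Of 18 complex I genes tested, 17 were higher in irradiated kidneys (48.8% of all probes were). Among them 2 passed (0.293% of all probes were higher and passed), and the median of the list was +0.09. This median stayed above 0 under median scaling (+0.02) and turned to −0.05 with the mismatch ratio of the arrays as a covariate. Ndufb5 differed by +0.58 ± 0.15 (adjusted p = 0.137) and did not pass, and Ndufa10 was the 1 member below control (−0.20 ± 0.09, adjusted p = 0.42). Of 17 genes for complexes II to IV and cytochrome c, 14 were higher and 1, Uqcrb, passed, with a median of +0.08 that turned to −0.02 under median scaling. Sdhb, the iron-sulfur subunit of complex II, differed by +0.36 ± 0.10 (adjusted p = 0.141). Among 8 nuclear ATP synthase genes, 5 were higher and 0 passed (median +0.02, which turned to −0.07 under median scaling), with 1 higher and 0 lower at unadjusted p under 0.05 in limma, where 6.06% and 5.86% of all probes stood. Of 33 mitochondrial ribosomal protein genes, 17 were higher and 16 lower.

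Among genes of the mitochondrial genome itself, some stood higher and others lay near control. ND3, a core subunit of complex I, was at 1523, 1478 and 1411 units in irradiated kidneys, against 923, 647 and 607 units in control kidneys (+1.17 ± 0.20, adjusted p = 0.0352), the largest rise of a named probe. ND4L, also of complex I, was at 1634, 1738 and 1650.2 units in irradiated kidneys, against 936, 931 and 1091 units in control kidneys (+0.81 ± 0.12, adjusted p = 0.0234), while its other probe differed by +0.10 ± 0.16. COX2, a catalytic subunit of complex IV, was at 9809, 13897 and 12424 units in irradiated kidneys, against 7288, 7095 and 7419.7 units in control kidneys (+0.68 ± 0.12, adjusted p = 0.0494), and its brighter probe differed by +0.54 ± 0.12 (adjusted p = 0.0862). These 3 genes had no irradiated array at or below a control array on the probes that passed. Of 13 mitochondrially encoded genes, taken by their brightest probe, 11 were higher (48.8% of all probes were) and 2 passed. Their median was +0.11, which stayed above 0 in all alternatives (+0.05 to +0.32). The brightest probes, at log2 levels above 15, covered ATP6, COX3, CYTB, ND1 and ND4 and differed by −0.07 (CYTB) to +0.11 (ATP6). Quantile normalization gives every array the same set of values, so probes at the top ranks can differ little between groups. The brightest CYTB probe, for one, had a mean of 15.3 in both groups. ATP8 and ND2, subunits of ATP synthase and complex I, did not pass, at +0.43 ± 0.11 (adjusted p = 0.129) and +0.57 ± 0.18 (adjusted p = 0.226). COX1 and ND5, at log2 levels near those of ATP8 and ND2, differed by only +0.03 ± 0.09 and +0.14 ± 0.16. The dim ND6 probe differed by −0.04 ± 0.10.

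The translation machinery held the next group of rises. Rps4x, a protein of the small ribosomal subunit, was at 5415, 5214 and 5206 units in irradiated kidneys, against 4392, 3813 and 3352 units in control kidneys (+0.47 ± 0.07, adjusted p = 0.0251). Eef1b2, which recharges the elongation factor that brings tRNA to the ribosome, was at 3391, 3238 and 3208 units in irradiated kidneys, against 2698, 2185 and 2135 units in control kidneys (+0.51 ± 0.09, adjusted p = 0.0421). That elongation factor itself, Eef1a1, rose on a dim probe, at 396, 458 and 368 units in irradiated kidneys, against 230.4, 192 and 143 units in control kidneys (+0.70 ± 0.12, adjusted p = 0.0352). In all 3 genes the arrays of the groups were apart. From deposited values floored at 16 units, without the background correction, Eef1a1 differed by +1.13. Such genes have many near-identical copies in the mouse genome, and since probe sequences were not used here, which copy a probe reads was not tested.

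Across 64 cytosolic ribosomal protein genes tested, 53 were higher in irradiated kidneys and 11 lower, with 2 that passed and 19 higher and 1 lower at unadjusted p under 0.05 (the same shares of all probes hold here). Their median was +0.11, which was +0.01 under median scaling and turned to −0.02 with the mismatch covariate. Next in line, without passing, were Rps3a1 (+0.81 ± 0.15, adjusted p = 0.0542), Rpl6 (+0.95 ± 0.20, adjusted p = 0.0727) and Rpl21 (+0.86 ± 0.19, adjusted p = 0.0829). Rpl6 was read at 766, 622 and 890.1 units in irradiated kidneys, against 377, 418 and 429 units in control kidneys, so the groups were apart although the test was not passed. Of 25 elongation and initiation factor genes, 16 were higher, 9 lower and 2 passed (median +0.04, −0.02 under median scaling). Eif4ebp2, which binds and blocks the cap-binding factor, went the other way at −0.64 ± 0.13 (adjusted p = 0.0727).

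Short promoter sequences are shown for the genes above because several of these genes share letters bound by factors known for respiratory and ribosomal genes. The core GCGCATGC of nuclear respiratory factor 1 (NRF1) and the core CCGGAAG of ETS factors were searched on both strands in RefSeq promoters of the GRCm38.p6 table, each from 250 bases before to 50 after the annotated start. Capitals mark the match, and each window is 30 bases long. The first 3 windows hold the NRF1 core of genes that rose, and the last 3 hold the ETS core of translation genes, of which Eef1b2 passed.
Ndufa6: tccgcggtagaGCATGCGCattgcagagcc
Eef1a1: cagtgcgaggaGCATGCGCtcagggctgag
Etfa: gagggcgtggcGCGCATGCcagcgtctcgg
Eef1b2: ctgcagttccgCCGGAAGtagccgaggcct
Rpl6: ttgcttatagaCCGGAAGccgctgccttag
Rps3a1: gattcttaaagCCGGAAGggcgaaagagca
They lie, in the same order, at chr15:82354356-82354385 (minus strand), at chr9:78481875-78481904 (minus strand), at chr9:55512330-55512359 (minus strand), at chr1:63176821-63176850 (plus strand), at chr5:121204502-121204531 (plus strand) and at chr3:86142659-86142688 (minus strand). Of 8 nuclear genes that rose, 5 had a promoter in the table and 3 of these held the NRF1 core, against 0 of 9 among the genes that fell. Genes are counted by the probe that passed, Etfa among them, whose brighter probe differed by +0.0060. The same core was in 6.57% of the promoters of all genes tested and in 3.05% of all promoters of the table. In complexes II to IV and cytochrome c 5 of 13 promoters held it, Sdhb and Cycs among them. It was in 2 of 16 complex I promoters and 2 of 46 ribosomal protein promoters. The ETS core was in 1 of the 5 promoters of genes that rose and 0 of the 9 of genes that fell. It was in 21 of 46 ribosomal protein promoters, 21.6% of those of all genes tested and 9.93% of the table. The core AAGATGGC of YY1, also searched, was in 0 of the 5 and 0 of the 9 promoters (5.94% of all genes tested). A match is a description of letters and no test of binding was made.

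Among genes that fell, regulators of transcription and chromatin led. Zbtb7a, a zinc-finger repressor, was at 442, 460.1 and 359 units in irradiated kidneys, against 838, 855 and 692 units in control kidneys (−1.07 ± 0.12, adjusted p = 0.00997), the largest fall of a named probe. Klf3, a Krüppel-like repressor, was at 1082, 864 and 896 units in irradiated kidneys, against 1409, 1443 and 1502 units in control kidneys (−0.75 ± 0.10, adjusted p = 0.0186). For both, the brightest irradiated array was below the dimmest control array. Of 13 zinc-finger and homeobox factor genes tested, 10 were lower (51.2% of all probes were), 2 passed and the median was −0.09. Zbtb20 (−0.64 ± 0.13, adjusted p = 0.0694) was next without passing, and Zfp36l1, which was listed with them and is known for decay of AU-rich messages, differed by +0.36 ± 0.22.

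Chromatin regulators fell by smaller steps. Brd3, a bromodomain reader of acetylated histones, was at 829, 884 and 779.9 units in irradiated kidneys, against 1075, 1025 and 1055 units in control kidneys (−0.43 ± 0.06, adjusted p = 0.0201). Kmt2e, a relative of the histone methyltransferases, was at 219, 206 and 217 units in irradiated kidneys, against 341, 375 and 339 units in control kidneys (−0.49 ± 0.07, adjusted p = 0.0213). Rcor1, the scaffold of a corepressor that holds a histone demethylase and deacetylases, was at 390.3, 362 and 293 units in irradiated kidneys, against 497, 499.6 and 481 units in control kidneys (−0.52 ± 0.09, adjusted p = 0.036). These were modest but tight differences, with no array of one group inside the range of the other. Of 27 such genes, 20 were lower (51.2% of all probes were), and 3 passed, all of them lower (0.211% of all probes). The median was −0.11, below 0 in all alternatives (−0.15 to −0.07). This list was chosen with earlier results of these data known and holds the genes that passed, so its counts are no separate support for them. A relative of Brd3, Brd2 (−0.46 ± 0.10, adjusted p = 0.0905), and the acetyltransferase gene Crebbp (−0.37 ± 0.08, adjusted p = 0.0845), lay below control without passing. The dim Crebbp probe differed by −1.05 with the noise taken from central scores, where it passed (adjusted p = 0.0449).

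RNA processing genes were split between the directions. Papola, the nuclear poly(A) polymerase, fell by 0.46 ± 0.08 (adjusted p = 0.0358), at 302, 279.7 and 262 units in irradiated kidneys, against 368, 441 and 409 units in control kidneys. Rbm39, a splicing factor, fell by 0.42 ± 0.07 on one probe (adjusted p = 0.0324), at 269, 224 and 184 units in irradiated kidneys, against 344, 351 and 338 units in control kidneys, but its other probe differed by +0.21 ± 0.07 (adjusted p = 0.259). That pair of probes pointed in opposite directions, and no direction is given for the gene. Of 43 genes for splicing and 3′-end processing, 27 were lower (51.2% of all probes were), 16 higher and 2 passed, with a median of −0.05. Luc7l3 differed most in size among them (−0.94 ± 0.20, adjusted p = 0.0801) and did not pass, while Srsf5 lay above control (+0.32 ± 0.08, adjusted p = 0.121, and +1.16 from floored values). The Srsf5 probe was dim, at 202, 152 and 218 units in irradiated kidneys, against 68.7, 76.8 and 114 units in control kidneys. It was detected on only 1 control array, so the size of its difference is uncertain.

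Proteins that tie the actin cytoskeleton to the cell's attachments also included falls. Palld, an actin cross-linker of stress fibres, was at 2629, 2500.2 and 2356 units in irradiated kidneys, against 3681, 4209 and 4350.5 units in control kidneys (−0.77 ± 0.13, adjusted p = 0.0352). Tns1, which links integrins to actin in focal adhesions, was at 4918, 4789 and 4748 units in irradiated kidneys, against 6277, 6041 and 6488 units in control kidneys (−0.43 ± 0.07, adjusted p = 0.0324), the brightest of the named probes that fell. Both separated the groups. Of 29 genes of this kind, 23 were lower (51.2% of all probes were), and 2 passed, both lower (0.211% of all probes). The median was −0.07, below 0 in all alternatives (−0.13 to −0.04). This list, too, was chosen with earlier results known and holds the genes that passed. Actb, cytoplasmic β-actin, was read at 8953, 8457 and 8729 units in irradiated kidneys, against 11063, 10777 and 10648 units in control kidneys, a difference of −0.37 ± 0.07 that did not pass (adjusted p = 0.0614), and Pdlim1 (−0.40 ± 0.10) and the focal adhesion gene Zyx (−0.27 ± 0.07) did not pass either.

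**Figure D2:**
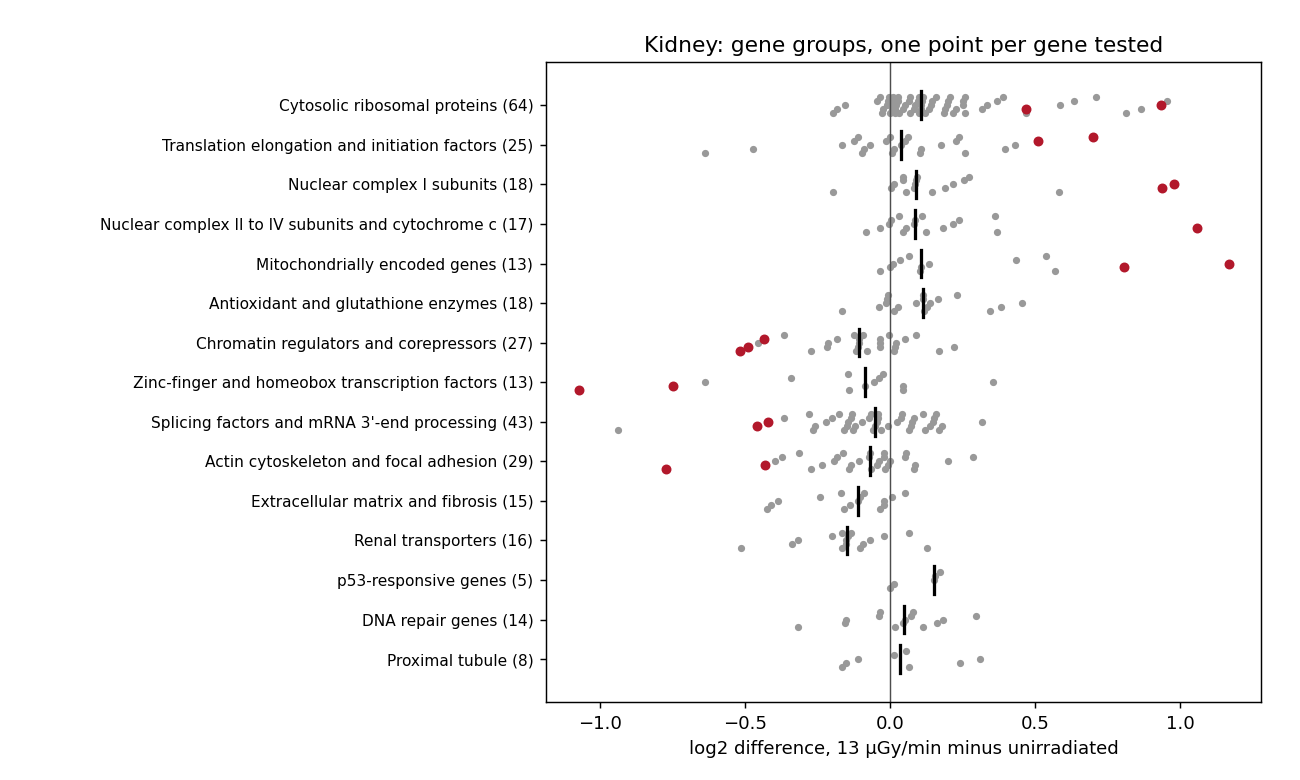
Log2 difference between irradiated and control kidneys for each gene tested in 15 lists (number of genes in brackets), with red points for those at adjusted p under 0.05 and a black bar at the list's median. Red points lie to the right in the ribosomal, translation and respiratory lists and to the left in the chromatin, zinc-finger, splicing and actin lists.

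Extracellular matrix and transporter genes leaned below control without a single gene passing. Over all probes tested, 51.2% lay below control. Of 15 matrix genes, 13 were lower, 0 passed in limma, 0 were higher and 3 lower without overlap of the arrays (6.46% and 7.36% of all probes were), and the median was −0.11 (−0.19 to −0.09 over the alternatives). At unadjusted p under 0.05 stood 0 higher and 4 lower matrix genes, where 6.06% and 5.86% of all probes stood. Hspg2, the basement membrane proteoglycan perlecan, differed by −0.39 ± 0.12 (adjusted p = 0.219) and Dcn, decorin, by −0.42 ± 0.17. Of 16 renal transporter genes, 14 were lower, 0 passed in limma and 0 higher and 2 lower ones reached unadjusted p under 0.05, with a median of −0.15 (−0.22 to −0.07). The lowest p-values were those of Slc22a13, at −0.32 ± 0.07 (adjusted p = 0.083), and Slco3a1, an organic anion transporter, at −0.51 ± 0.13 (adjusted p = 0.117). None of these values passed, so the 2 lists are given as leanings of many small differences.

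A pair of enzymes passed outside these groups. Cpq, a secreted carboxypeptidase, was at 640.4, 528 and 595 units in irradiated kidneys, against 396, 433 and 417 units in control kidneys (+0.50 ± 0.07, adjusted p = 0.0218). Pfkl, the liver-type phosphofructokinase of glycolysis, fell by 0.31 ± 0.06 (adjusted p = 0.0483), the smallest difference that passed, at 1630.3, 1887 and 1539.8 units in irradiated kidneys, against 2153, 1992 and 1885 units in control kidneys. Of 16 glycolysis and gluconeogenesis genes, 9 were higher and 7 lower, and Pfkl was the 1 that passed. The tricarboxylic acid cycle list was split at 5 higher and 4 lower, with Mdh2, mitochondrial malate dehydrogenase, at +0.40 ± 0.09 (adjusted p = 0.096, and +0.66 from floored values). Fatty acid oxidation genes were at 10 higher and 10 lower.

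Of the p53 targets tested, 0 passed in limma. Cdkn1a was at 195, 263 and 202 units in irradiated kidneys, against 134.3, 224 and 143 units in control kidneys, a difference of +0.16 ± 0.08 (adjusted p = 0.516) with overlapping groups, which was +0.35 with the noise taken from central scores and +0.42 from floored deposited values (adjusted p = 0.479 and 0.437). Ccng1, another p53 target, differed by +0.15 ± 0.17 (adjusted p = 0.818), or by +0.27 from floored values. Of 10 p53-responsive genes found on the array, 5 were bright enough to test. Of these, 4 were higher (48.8% of all probes were) and 0 reached unadjusted p under 0.05. The median of these 5 genes was +0.15 (+0.0025 to +0.39 over the alternatives). Mdm2, Bax and Trp53inp1 were not among the probes tested. Of 14 DNA repair genes, 9 were higher and 5 lower, and 0 passed in limma. At unadjusted p under 0.05 stood 1 higher and 2 lower ones, where 6.06% and 5.86% of all probes stood. Antioxidant and glutathione genes were higher in 13 of 18 cases with 0 passing in limma and 1 higher and 0 lower at unadjusted p under 0.05 (median +0.11, +0.02 under median scaling and −0.05 with the mismatch covariate), Prdx6, a peroxiredoxin, among them at +0.38 ± 0.09 (adjusted p = 0.106, and +0.61 from floored values).

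Markers of kidney injury did not pass either. Spp1, osteopontin, which injured tubules secrete, was at 3569, 3049 and 3444 units in irradiated kidneys, against 2426, 2018 and 1959 units in control kidneys, so that its groups were apart, yet the difference of +0.67 ± 0.20 had adjusted p = 0.187. Havcr1, the injury marker KIM-1, was dim in both groups, at 93.7, 132.4 and 106 units in irradiated kidneys, against 68.1, 98.7 and 84.5 units in control kidneys (+0.08 ± 0.14, and +0.40 from floored values). Of 10 injury and senescence genes, 5 were higher and 5 lower, and 0 passed in limma. At unadjusted p under 0.05 stood 2 higher and 1 lower ones, where 6.06% and 5.86% of all probes stood.

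Markers of the cell types of the kidney were measured beside these lists. All 8 proximal tubule markers on the array were detected, which is the cell type that makes up most of the organ, and their summed normalized intensity ran from 87409 to 91899.7 units on irradiated arrays and from 88098 to 97082 units on control arrays. Of the 47 marker genes tested in 11 cell type lists, 0 passed in limma, and 5 reached an unadjusted p under 0.05 (11.9% of all probes did). Macrophage markers were higher in 5 of 7 cases (48.8% of all probes were), with sums from 4248 to 5925 units on irradiated arrays and from 4678 to 5681 units on control arrays. Endothelial markers were lower in 4 of 5 cases (51.2% of all probes were), with sums from 3264 to 4121 units on irradiated arrays and from 3710.1 to 4289.5 units on control arrays. The B, plasma and T cell list had sums from 6507 to 16938 units on irradiated arrays and from 13044 to 15987 units on control arrays, and the erythrocyte list from 10463 to 26318 units on irradiated arrays and from 12835 to 18575 units on control arrays, so both varied widely between single irradiated arrays. Ighm and Igkc, immunoglobulin chains, differed by −0.32 ± 0.76 and −0.37 ± 0.56. Adrenal tissue next to the kidney was represented by 1 tested marker of 3 on the array, Scarb1, at −0.15 ± 0.17. The groups overlapped in the sum of each of these lists, and the part of cell makeup in the gene differences was not tested.

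Control probes built into the arrays also differed between the groups. Mismatch probes, which carry wrong bases, gave 8.29% ± 0.82 of the signal of their matched probes on irradiated arrays and 6.13% ± 0.61 on control arrays (SD, n = 3 each), with ranges of 7.37% to 8.93% and 5.67% to 6.82%. Matched high-stringency probes were dimmer on irradiated arrays, at 55159 ± 547 against 63491 ± 825 units, and so was the average of all gene probes, at 398 ± 21 against 473 ± 41 units. Each of these 3 measures had a two-sided exact permutation p = 0.1, the smallest that 3 against 3 allows. With the mismatch ratio as a covariate over all 12 kidney arrays, 0 probes passed in limma, with 701 at unadjusted p under 0.05 and a smallest adjusted p of 0.263, while all 55 kept their direction. Under that fit Ndufb9 differed by +0.63 and Zbtb7a by −1.05, and Uqcrb by +0.35. The ratio moves with the groups, so its part in the result cannot be told apart from that of irradiation.

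Gene span was not used to choose any gene and differed between the directions. Span is the length of the gene on its chromosome with introns, in the GRCm38.p6 table. Of the nuclear genes that rose, 8 had a median span of 4.61 kb, with 6 of them between 3.27 and 5.72 kb, and Etfa (57.8 kb) and Cpq (511 kb) above. The 10 that fell had a median of 58.2 kb, from 17 kb (Zbtb7a) to 391 kb (Palld). Etfa and Rbm39 are counted by the probe that passed, although their other probes did not give the same difference. Over all 3144 nuclear genes tested, 57.4% were higher in irradiated kidneys in the first of 4 equal bins by span, which held the shortest genes, then 49.0%, 41.5% and 36.9% in the bins of longer genes. The medians of these bins were +0.02, −0.0033, −0.02 and −0.04 on the log2 scale, so the trend was small beside the differences of the genes that passed. Genes are not independent replicates, and transcript length was not used here.

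**Figure D3:**
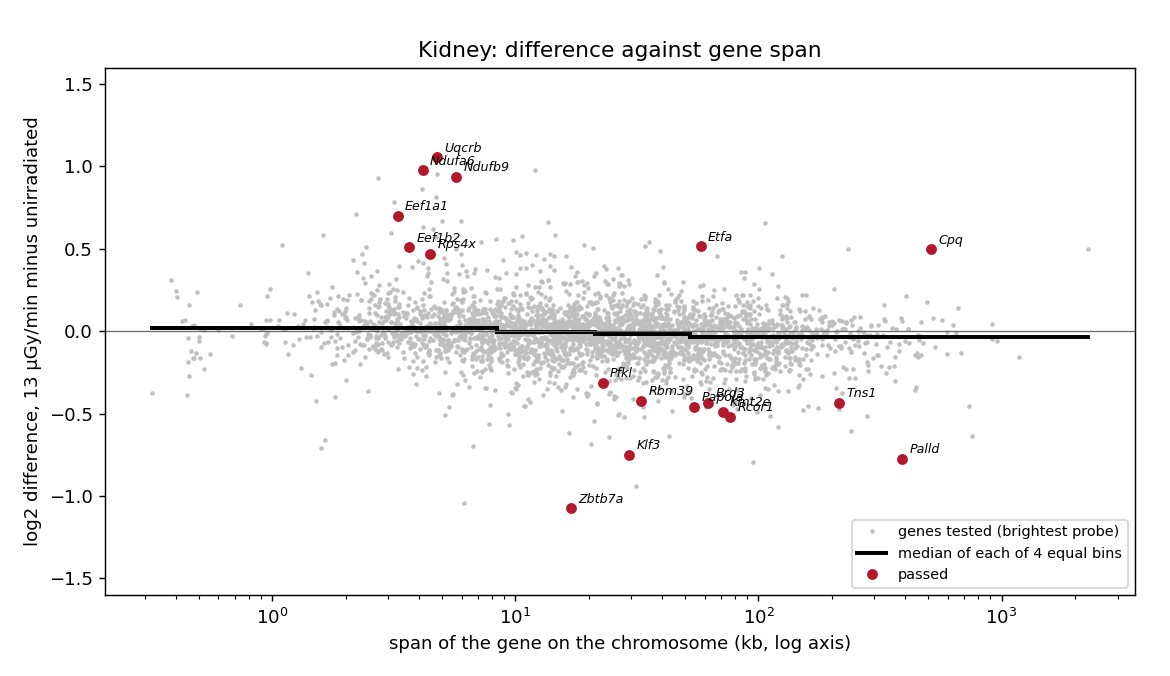
Log2 difference between irradiated and control kidneys against the span of each of 3144 nuclear genes (kb, log axis), with black lines at the median of each of 4 equal bins and red points for 18 named nuclear probes that passed. The red points above 0 lie mostly at the left, between 3.27 and 5.72 kb, and all those below 0 lie at 17 kb or more.

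At the other dose rates the genes of this comparison can be set beside each other, keeping in mind that all differences share the same 3 control arrays. Against control, limma called 0 probes at 0.032 µGy/min (908 at unadjusted p under 0.05, 8.33%) and 34 (0.312%) at 0.65 µGy/min. The mismatch signal described above was 5.67% to 6.82% of the matched signal on control arrays, 5.10% to 6.09% at 0.032, 8.54% to 8.90% at 0.65 and 7.37% to 8.93% at 13 µGy/min. Control and 0.032 µGy/min arrays thus lay apart from those at both higher dose rates, and the part of this shift in the dose-rate pattern was not tested. Ndufb9 differed from control by −0.07 at 0.032, +0.53 at 0.65 and +0.94 at 13 µGy/min. Ndufa6 differed by −0.05, +0.54 and +0.98 in the same order. Uqcrb was about as high at 0.65 as at 13 µGy/min, at +0.12, +0.97 and +1.06.

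Other genes had other orders. Zbtb7a lay below control at each dose rate, by −0.67, −0.71 and −1.07. Klf3 was lower at 0.032 than at 0.65 µGy/min, at −0.38, −0.23 and −0.75. Brd3 and Rcor1, which fell at 13 µGy/min, lay slightly above control at 0.032 µGy/min, by +0.05 and +0.03. ND4L stood higher at 0.65 than at 13 µGy/min, at −0.12, +1.39 and +0.81. Compared directly, 13 µGy/min against 0.65 µGy/min, limma called 3 probes (0.0275%), of which 0 had a symbol. Ndufb9 differed there by +0.41 ± 0.09 (adjusted p = 0.24), Klf3 by −0.52 ± 0.10 (adjusted p = 0.155) and ND4L by −0.58 ± 0.12 (adjusted p = 0.201), so for named genes the levels at these dose rates were not told apart by the test.

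**Figure D4:**
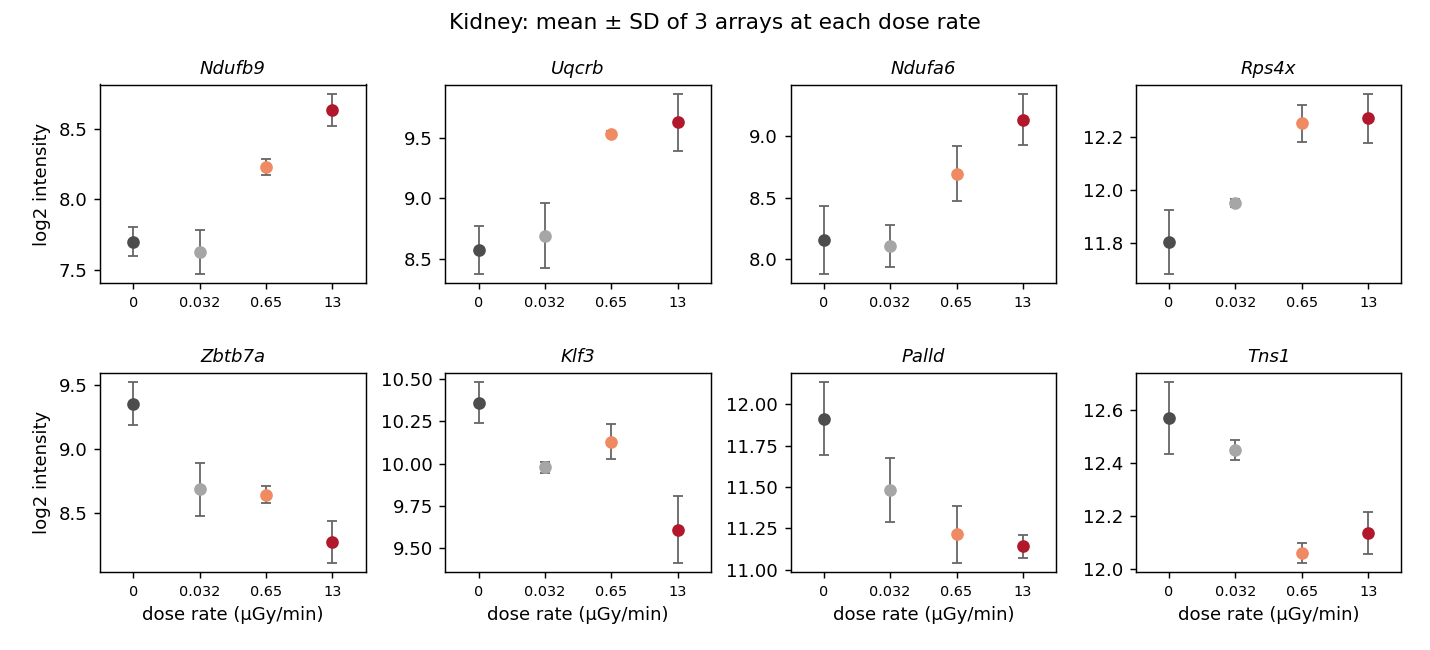
Mean normalized log2 intensity ± SD of 3 arrays for 8 genes in control kidneys (0) and at 0.032, 0.65 and 13 µGy/min, on evenly spaced positions. The upper row holds genes that rose at 13 µGy/min, which lay closer to control at 0.032 than at 13 µGy/min. The lower row holds some of the genes that fell, and the means of those drawn also lay below control at 0.032 µGy/min.

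Testis arrays of mice at the same dose rates, which share no control with the kidney arrays, allowed each gene to be looked at in a second organ. Of the 55 kidney probes, 53 could be tested in both tissues. Among the 31 that were higher in irradiated kidneys, 26 were also higher in irradiated testes (50.7% of all probes were), with a median testis difference of +0.32. Among the 22 lower ones, 13 were lower in testes (49.1% of all probes were), with a median of −0.04. Of the 53, 16 reached an unadjusted p under 0.05 in testis (13.4% of all probes did), and 2, ND3 and COX2, an adjusted p under 0.05 (0.678%). For ND3 this was with all its testis control arrays set to the floor.

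COX2 was at 11138, 9297 and 9824 units in irradiated testes, against 7031, 6593 and 7318 units in control testes, a difference of +0.62 ± 0.14 (adjusted p = 0.0473). ND4L was at 485, 523 and 657 units in irradiated testes, against 267, 405 and 335 units in control testes (+0.77 ± 0.22, adjusted p = 0.106). ND3 was dim in testis, at 73.2, 102.3 and 126 units in irradiated testes, against −9.55, −32.4 and 4.51 units in control testes, below the floor of 16 units on each control array, so no fold is given. Ndufb9 was at 459.7, 481 and 427 units in irradiated testes, against 309, 274 and 379 units in control testes (+0.56 ± 0.18, adjusted p = 0.17). The rises of these mitochondrial genes in kidney thus stood beside higher values in testis, of which COX2 passed there on values above the floor. For ND3 the floor made the testis control arrays equal (SD 0), so its adjusted p under 0.05 rests in part on the floor.

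Genes that fell in kidney gave a mixed picture in testis. Papola was lower there as well, at 1117, 967 and 1040.5 units in irradiated testes, against 1552, 1359 and 1373 units in control testes (−0.38 ± 0.12, adjusted p = 0.148). Klf3 was at 519, 487 and 442 units in irradiated testes, against 356, 431 and 359.7 units in control testes and Pfkl at 1991, 1719.9 and 2077 units in irradiated testes, against 1597, 1683 and 1522 units in control testes, so both were above control on every irradiated testis array (+0.39 ± 0.20 and +0.35 ± 0.13, adjusted p = 0.426 and 0.252). Zbtb7a differed by +0.27 ± 0.21 in testis. The difference between tissues was tested directly as kidney minus testis over 23306 probes, of which 5 (0.0215%) passed, 0 of them among the kidney probes that had passed. At unadjusted p under 0.05 stood 27 of the 53 and 8.77% of all probes, from which nothing is read, since the 53 were chosen by a kidney difference that is itself a term of this one. For Zbtb7a it was −1.22 ± 0.29 (adjusted p = 0.189) and for Klf3 −1.05 ± 0.29 (adjusted p = 0.262). Among the named probes, the kidney difference itself passed in that limma fit for Ndufb9, Uqcrb and Palld (adjusted p = 0.0219, 0.037 and 0.048). It did not pass there for the others, such as Zbtb7a (0.0797), Klf3 (0.338) and Eef1a1 (0.861). The labels do not tie kidney to testis arrays, and that fit treats all 24 as independent, which would not hold if the same mice gave both organs.

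**Figure D5:**
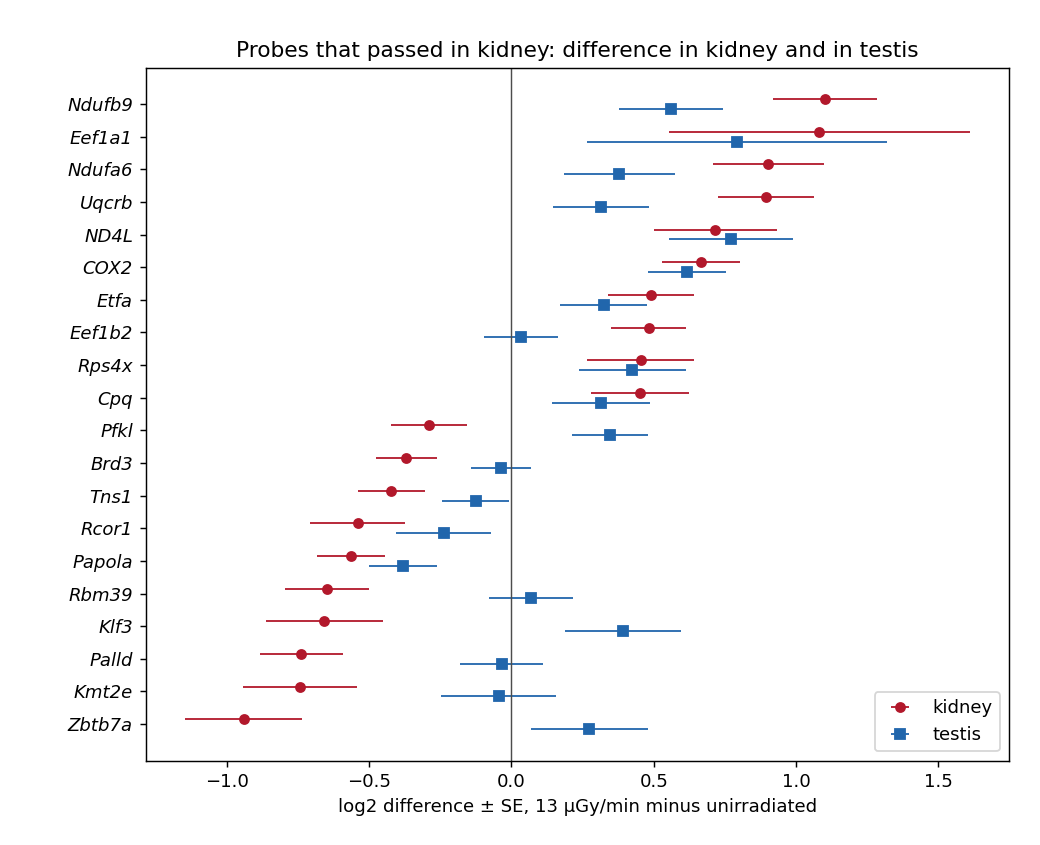
Log2 difference ± SE between irradiated and control arrays in kidney (red) and testis (blue) for 20 named probes that passed in the fit of kidney alone, without ND3. The values drawn are from the fit of both tissues, where not all of these probes passed in kidney. All kidney rises drawn lie above 0 in testis as well, while the kidney falls lie on both sides of 0 in testis.

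Probes without a symbol made up 33 of the 55 and included the smallest adjusted p of all. Probe 6650168 was at 320.0, 287 and 269 units in irradiated kidneys, against 501, 533 and 535 units in control kidneys (−0.81 ± 0.05, adjusted p = 0.00017), and it was 1 of the 3 that also differed from 0.65 µGy/min. Probe 4200112 was at 1285, 1084 and 1076 units in irradiated kidneys, against 2067, 2216 and 1877 units in control kidneys (−0.95 ± 0.11, adjusted p = 0.00997). Probe 104120746 was at 1043, 1129 and 1294 units in irradiated kidneys, against 654, 562 and 578 units in control kidneys (+1.08 ± 0.18, adjusted p = 0.0352), and probe 102190086 at 846, 951 and 978 units in irradiated kidneys, against 493, 499.7 and 514 units in control kidneys (+0.99 ± 0.11, adjusted p = 0.00997). These unnamed probes separated the groups, as did all 55 that passed and 13.8% of all probes tested, so the separation adds nothing about them. Where a gene had a pair of tested probes, which was so for 235 genes, the differences of the pair had the same sign in 57.9% of cases and r = 0.30 across genes, which are not independent replicates.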

How the data were processed

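Per the file headers, the authors exported the kidney table from BeadStudio 1.5.0.34 after rank-invariant scaling, and its deposited signal is a background-subtracted intensity on a linear scale. A detection score for each probe and array, deposited beside it, is a fraction from 0 to 1 that nears 1 for probes brighter than the negative controls. Bead numbers were used only to describe the arrays, and 23 other per-sample columns were not used. Testis values came from the deposited value table, an intensity on a linear scale with a normalization not given in the sources used here.

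A zero-padded number of at least 5 digits in a probe's identifier was taken for an NCBI gene ID and matched to the GRCm38.p6 RefSeq table. Of 11897 such numbers 82.6% were gene IDs, against 11.3% of 16535 unpadded numbers, and with 13 probes named by the file this gave symbols to 9845 of 46116 probes. After 4 control entries were left out, signals were background-corrected from the scores, quantile normalized and log2-transformed by neqc of limma (limma 3.58.1 in R 4.3.3, offset 16), and probes with a score above 0.99 on at least 3 of 12 arrays were kept. The noise SD that neqc took from the scores, 175 to 218 units, exceeded that from central scores between 0.05 and 0.95, 19.8 to 28.4 units, so log2 differences of dim probes are drawn towards 0. For that reason deposited intensities stand beside them. All 12 kidney arrays entered 1 limma fit of 4 groups, and each contrast was a two-sided moderated test with Benjamini-Hochberg adjustment. Errors beside log2 differences are the limma SE. The limma p-values set a difference against the spread of arrays within groups, pooled over all groups of the fit and moderated across probes.

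The tissue comparison used signals floored at 16, taken as log2 and quantile normalized within each tissue, in 1 limma fit of 24 arrays. Lists used the brightest probe of a gene. The text names every probe with a symbol that passed, the 10 nearest to the threshold per direction among separated probes list examples from the 4 members with the lowest p or the first 3 of the list, and a fixed set of p53 and injury genes, apart from 3 genes that are not reported here. Brd2, Zyx, Ndufa10, Zfp36l1, Cycs, COX1, COX3, CYTB, ND4, ND5 and ND6 lie outside this rule and were chosen after their values were seen, as were the 4 probes without a symbol. Members, lists and motifs were chosen with earlier results of these data known. Between 8879 and 10985 probes were detected per kidney array, from a median of 39 to 44 beads each, and arrays correlated at r = 0.978 to 0.994 within the irradiated and control groups and 0.981 to 0.990 between them. The scripts were tested on simulated data. Promoter windows and gene spans were read with Python 3.11.15.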

Additional observations from a re-analysis of the deposited data

Results flagged for a closer look

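Control probes outside the gene measurements differed between the groups: the mismatch signal averaged 8.29% of the matched signal on irradiated kidney arrays, against 6.13% on control arrays, with no overlap, and its part in the gene differences was not tested beyond the covariate fit.

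Among the 5 probes whose kidney and testis differences were unlike in the direct test, 2 carry a symbol. They were named after their values were seen. Sprr2d, a small proline-rich protein of epithelia, had a fitted kidney minus testis difference of −2.06 (limma on values floored at 16, adjusted p = 0.0479), which is no measured fold. It was at 67.2, 49.9 and 60.2 units in irradiated testes, against −0.234, 22.8 and −20.1 units in control testes, and between −14.0 and 28.4 units on the 6 kidney arrays. Cdca7l, a transcriptional regulator, had a fitted difference of +1.61 (adjusted p = 0.0468), whose size depends on the floor, since 1 control kidney array lay below it and the others near it. It was at 50.5, 36.4 and 54.3 units in irradiated kidneys, against 15.6, 16.5 and 21.1 units in control kidneys, and at 310, 394 and 319 units in irradiated testes, against 462, 421 and 342 units in control testes. Both probes were too dim in kidney to be among the 10903 tested there.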

How the results depend on the processing

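The 55 probes kept their direction in each alternative, which their separated arrays fix where arrays are left out. The count was 51 with the noise taken from central scores, 57 from floored deposited values and 82 with trended, robust variances. It was 29 without background correction, 12 with median scaling, 19 without the filter, 2064 with array weights, 0 with irradiated and control arrays alone, 0 with the mismatch ratio as a covariate and 105 where unadjusted p was under 0.05 and the change at least 1.5-fold. Leaving out 1 array gave 2 to 197. A replicate block gave 27, of which 19 were among the 55, with 8 of the 22 named. The groups share the numbers 2 and 3, whose arrays deviated together with r = 0.44 and 0.17, but over all kidney groups 10 of 13 same-numbered pairs were over 0.1 and the lowest was −0.17, and control replicate 3 correlated more with high replicate 1 (0.32), so the numbers were not taken as pairs. The named genes that passed did so in 2 (Pfkl) to 14 (Ndufb9) of 16 alternatives; the cause was not tested. The tissue difference had 5 probes, 4 without quantile normalization, 73 without the filter and 0 to 48 when 1 array was left out, an alternative chosen after seeing the data. Signal over background limits dim probes such as Eef1a1, Kmt2e and Rbm39, and p53 targets too dim to test may differ undetected.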

Other observations

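Among genes near the threshold that belong to none of the groups above, Wwtr1, the transcriptional coactivator TAZ, was at 391, 356 and 309 units in irradiated kidneys, against 464, 487 and 602 units in control kidneys (−0.58 ± 0.11, limma adjusted p = 0.0518). Gnai1, an inhibitory G protein subunit, was at 311, 207 and 207 units in irradiated kidneys, against 528, 364 and 515 units in control kidneys (−0.79 ± 0.16, adjusted p = 0.0625). Pnpla2, the triglyceride lipase of fat droplets, differed by −0.38 ± 0.07 (adjusted p = 0.0562). On the higher side, Vps29, a retromer subunit, was at 514, 532 and 499 units in irradiated kidneys, against 405, 318 and 265 units in control kidneys (+0.58 ± 0.13, adjusted p = 0.083), and Enpp2, which makes lysophosphatidic acid, differed by +0.35 ± 0.07 (adjusted p = 0.0668, and +0.75 from floored deposited values). None of these passed, although the arrays of each were apart. The same held for Ankrd46 (+0.28), Efr3a (+0.32), Gm14270 (+0.52), Tmco1 (+0.32) and a second ATP6 probe (+0.41) on the higher side, and for Ankhd1 (−0.49), Dusp11 (−0.37), Zfp871 (−0.31) and Tut7 (−0.53) on the lower side, given as log2 differences. From floored deposited values, Ankrd46 differed by +1.03, Ankhd1 by −1.04 and Zfp871 by −0.64, of which Ankrd46 and Ankhd1 passed there (both adjusted p = 0.0335). The dim Ankrd46 probe was detected on only 2 control arrays.

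Circadian clock genes were lower in 5 of 6 cases with 0 passing in limma and 0 higher and 1 lower at unadjusted p under 0.05, with Rora at −0.45 ± 0.17 (adjusted p = 0.319). Interferon-stimulated genes were higher in 8 of 11 cases, proteasome genes in 7 of 16 and genes of cholesterol synthesis in 6 of 14, each with 0 passing in limma. At unadjusted p under 0.05 stood 0 interferon-stimulated genes, 2 higher and 1 lower proteasome genes, and 0 higher and 2 lower genes of cholesterol synthesis. Of all probes, 6.06% were higher and 5.86% lower at that threshold, and 48.8% were higher and 51.2% lower at any p.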
